A study of Mus musculus with 4 samples.

Results

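DNA replication and cell cycle genes were examined in the binding profile of arginine-methylated Pontin, a chromatin-remodeling ATPase, in mouse embryonic fibroblasts (MEFs) deprived of glucose. The list held 58 of the 21938 protein-coding genes of the GENCODE vM21 annotation, and it was taken whole, with or without binding: 36 genes of DNA replication, 16 genes of cyclins, cyclin-dependent kinases (CDKs), the E2F and Rb families and CDK inhibitors, and 6 genes of mitosis. All 58 were found in the annotation. A gene was said to have a peak when the centre of a methylated Pontin peak lay within 2.5 kb of any of its transcription start sites (TSSs), and otherwise its nearest peak was recorded.

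The study comprised 4 ChIP-seq libraries of MEFs, in which the methylated Pontin ChIP and the input DNA were each sequenced from cells in normal medium and from glucose-starved cells, without replicates. The study describes the profiled cells as wild-type (WT) MEFs, and their strain and the length of starvation are not given for these libraries in the sources used here. The values below come from the peak list of the starved ChIP alone. The ChIP in normal medium was not analysed here, so a peak is a measurement under starvation and not a change caused by it. The antibody was raised against Pontin methylated on arginine by CARM1, and total Pontin was not analysed here.

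Chromosome replication starts with the loading of the MCM helicase at origins by the origin recognition complex, Cdc6 and Cdt1, and the helicase is then switched on by Cdc45 and the GINS complex. Cyclin-bound CDKs time these steps and inactivate the Rb family, which frees E2F factors to induce genes of replication and of nucleotide supply. Genes of late cell cycle phases are known to carry a different promoter element, the cell cycle genes homology region (CHR), together with CCAAT boxes.

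The starved ChIP library held 20765512 tags, and the authors' list gave 4311 peaks of a single fixed width. The signal of a peak was its normalised tag count, the tags in the peak per 10000000 tags of the library. Its median over all peaks was 14.2, which corresponds to 29.5 tags in the library. The 95% Poisson intervals below are for that count. They cover counting error only, since sequenced PCR fragments are not independent molecules, and no spread between replicates could be measured.

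Methylated Pontin peaks lay at 16 of the 58 genes (27.6%), against a background of 17.1% of all protein-coding genes (3747 of 21938). The genes with a peak were Gins3, Rrm1, Rfc1, Rpa2, Cdc45, Mcm5, Rfc2, Orc1, Tyms, Lig1 and Mcm10 of replication, Rbl1, Cdk4, E2f3 and E2f2 of the cyclin group, and Aurka of mitosis. Each had 1 peak, and no peak was shared by 2 listed genes. By class, 11 of 36 replication genes (30.6%), 4 of 16 cyclin group genes (25%) and 1 of 6 mitosis genes (16.7%) had a peak. With 6 genes in the mitosis class, a single gene moves its share by 16.7 percentage points, so the order of the classes is given without a test.

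The comparison with other genes turned on what was held alike at the promoter. Other protein-coding genes of like GC content in the 500 bp either side of the main TSS, weighted over bins of 5 percentage points as the listed genes fall, had a peak in 21.0% of cases. At that share 12.2 of the 58 genes would have a peak, below the 16 found. When the ratio of observed to expected CpG was held alike as well, the share of other genes rose to 31.2%, or 18.1 genes, above the 16 found. The same shares were computed by class. For replication genes the other genes of like GC had a share of 20.1% and those of like GC and CpG 33.3%, and the 30.6% measured lay between them. For the cyclin group these shares were 23.0% and 24.9%, next to the 25% measured, and for mitosis 21.0% and 35.5%, both above the 16.7% measured. In genes, they are 7.23 and 12.0 for replication against 11 found, and 3.68 and 3.98 for the cyclin group against 4. For mitosis they are 1.26 and 2.13 against 1. With so few genes, these values do not separate the classes. The listed promoters had a median CpG ratio of 0.80, compared with 0.57 for other genes, while their GC content was close, 57.1% against 55.2%. Over all 58 genes the share with a peak was thus above or below that of other genes according to whether CpG was taken into account.

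The plot of genes with a peak by promoter composition shows how the shares ran along each measure. Among other genes the share rose from 8.57% at a GC content of 45% to 50% to 23.8% at 55% to 60% and 25.1% at 60% to 65%. In the small numbers of listed genes no such rise was seen. At 45% to 50% 3 of 6 listed genes had a peak, at 50% to 55% 4 of 14 and at 55% to 60% 6 of 20. The 3 genes of the lowest bin were Cdc45, Lig1 and Mcm10. Of these, Cdc45 and Lig1 had peaks nearer to a TSS of another gene, and Mcm10 had the lowest tag count of the listed peaks. Of the 18 listed genes at 60% or more, 3 had a peak (16.7%), all of them in the cyclin group, compared with 24.7% of other genes. All 11 replication genes with a peak had a promoter GC content below 60%, as did 30 of the 36 replication genes. Further replication genes, outside the list, gave 6 of 17 below 60% and 5 of 13 at 60% or more. Along the CpG ratio the listed genes lay near the others: 6 of 20 between 0.6 and 0.8, where other genes had 26.7%, and 8 of 30 between 0.8 and 1, where other genes had 32.8%.

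**Figure D1:**
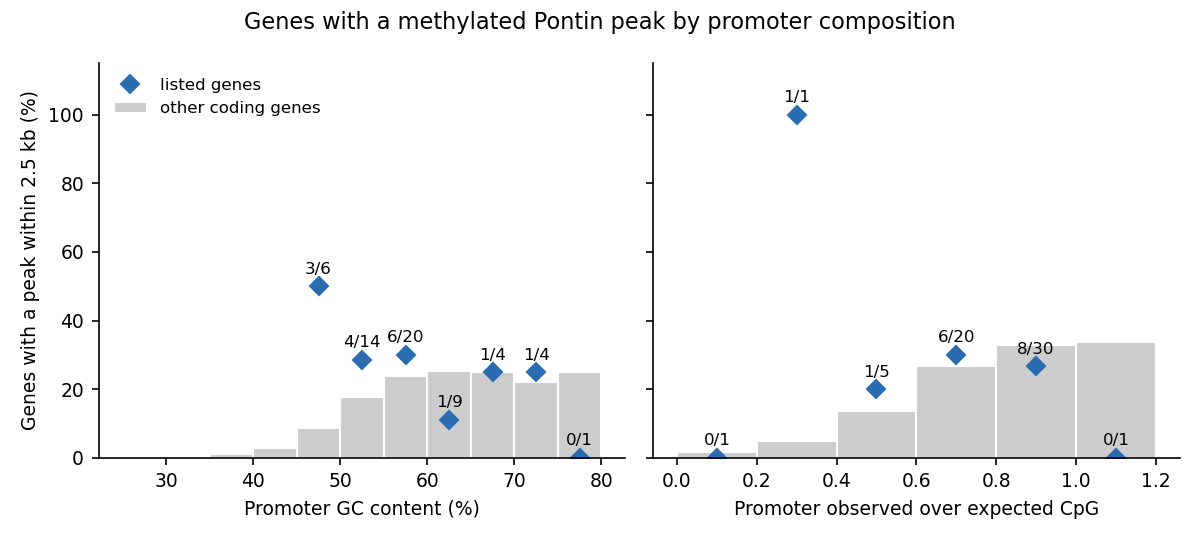
Share of genes with a methylated Pontin peak within 2.5 kb (y axis, percent) by promoter GC content (left, percent) and by promoter observed over expected CpG (right, a ratio without unit). Grey bars are other protein-coding genes, in bins of at least 20 genes, and diamonds are the listed genes, each labelled with the number with a peak over the number in the bin. At a GC content of 45% to 50% 3 of 6 listed genes had a peak, against 8.57% of other genes, whereas 8 of 30 did at a CpG ratio of 0.8 to 1, against 32.8%. Those 3 genes were Cdc45 and Lig1, whose peaks were nearer to a TSS of another gene, and Mcm10, the lowest in tag count.

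Stretches of 100 bp are shown for the peak with the most tags in each class (Gins3, Rbl1 and Aurka) and for the other 3 peaks of listed genes that held an E2F word (Rrm1, Rpa2 and Mcm5). They are from the GRCm38.p6 assembly, on the strand of the gene, and overlap no annotated exon. Capitals mark exact matches on either strand to the E2F words TTTCCCGC, TTTCGCGC, TTTGGCGC, TTTGCCGC and GCGGGAA and to CCAAT. The windows are chr8:95633053-95633152 (+) for Gins3, chr2:157204535-157204634 (-) for Rbl1, chr2:172371062-172371161 (-) for Aurka, chr7:102441567-102441666 (+) for Rrm1, chr4:132767964-132768063 (+) for Rpa2 and chr8:75109310-75109409 (+) for Mcm5.
Gins3: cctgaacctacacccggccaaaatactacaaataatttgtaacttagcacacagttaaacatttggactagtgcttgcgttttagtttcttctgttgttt
Rbl1: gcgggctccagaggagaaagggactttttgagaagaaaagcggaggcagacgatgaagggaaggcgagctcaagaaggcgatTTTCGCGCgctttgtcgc
Aurka: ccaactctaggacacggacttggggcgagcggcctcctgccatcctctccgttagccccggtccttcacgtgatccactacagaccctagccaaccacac
Rrm1: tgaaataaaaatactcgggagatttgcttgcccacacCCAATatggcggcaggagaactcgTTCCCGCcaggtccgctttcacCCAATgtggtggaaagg
Rpa2: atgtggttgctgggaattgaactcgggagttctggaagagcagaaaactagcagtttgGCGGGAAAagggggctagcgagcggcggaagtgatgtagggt
Mcm5: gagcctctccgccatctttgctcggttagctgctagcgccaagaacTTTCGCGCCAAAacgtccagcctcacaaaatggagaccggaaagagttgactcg

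The 6 stretches differ in base composition, from a GC content of 37% at Gins3 to 62% at Aurka, and neither of these held any of the words. At Rbl1 the E2F word lay 14 bp upstream of the TSS, at Rrm1 64 bp and between 2 CCAAT boxes, and at Rpa2 307 bp. The Rpa2 match is counted under both TTTCCCGC, on the reverse strand, and the shorter GCGGGAA that lies within its reverse complement. In Mcm5 the words TTTCGCGC and, on the reverse strand, TTTGGCGC overlap in 1 site.

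Of the genes that load the helicase at origins, 2 of 11 had a peak. The share of other genes of like GC content would give 2.48, and that of like GC and CpG 3.62. Mcm5 encodes a subunit of the MCM helicase ring, and its peak (chr8:75108979-75109459) had a tag count of 14.0 (95% interval 9.38 to 20.1). The peak was 18.1-fold over input and 4.45-fold over the surrounding 10 kb, with its centre 350 bp upstream of the TSS in intergenic sequence. The count was above 45.5% of all peaks, but above only 23.0% of the peaks of chromosome 8, where the median count of 18.5 was the highest of any chromosome. Orc1, the largest subunit of the origin recognition complex, had a peak of 13.0 tags (8.57 to 18.9) at chr4:108578815-108579295, 6.73-fold over input. Its centre was 368 bp upstream of Orc1 but lay in an exon of Prpf38a, a splicing factor gene transcribed the other way, 281 bp from the Prpf38a TSS. That peak therefore cannot be assigned to Orc1 rather than to its neighbour. The other MCM ring genes Mcm2, Mcm3, Mcm4, Mcm6 and Mcm7 had none, nor did Orc2, Orc6, Cdc6 or Cdt1, so that 1 of the 6 ring subunits had a peak.

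Of the genes that activate the helicase, 3 of 6 had a peak, where like GC content would give 0.92 and like GC and CpG 2.27. The peak of Gins3, a subunit of the GINS complex, had the highest tag count of the listed genes, 28.9 (22.1 to 37.2), at chr8:95632862-95633342. It was 6.80-fold over input and 7.05-fold over its surroundings, with its centre 351 bp upstream of the TSS. The count was above 99.3% of all peaks and above 95.6% of the peaks of chromosome 8. Cdc45, the helicase cofactor, had a peak of 14.2 tags (9.54 to 20.3) at chr16:18811963-18812443, 7.35-fold over input, 216 bp upstream of Cdc45. Its centre lay in an intron of Ufd1, a divergently transcribed gene of protein degradation, 91 bp from the Ufd1 TSS. Mcm10, which acts in helicase activation, had the lowest count of the listed peaks, 9.39 (5.70 to 14.6), at chr2:5013252-5013732, 6.07-fold over input and above 1.99% of all peaks. The Mcm10 peak rests on 19.5 tags in the library, close to the authors' limit of 18 tags. Its interval does not overlap that of Gins3. These 2 genes were picked as the ends of the range, so the gap between their intervals is no test of a difference. Gins1, Gins2 and Gins4 had no peak, with the nearest 54.7, 519 and 19.9 kb away.

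No peak lay at the 6 listed genes of replicative polymerases and primase, Pola1, Pola2, Pold1, Pole, Prim1 and Prim2. Other genes of like GC content would give 1.29, and those of like GC and CpG 1.74. The nearest to any of them lay at Naca, beyond the 3' end of Prim1, with 22.4 tags. It was 9.15 kb downstream of an alternative TSS of Prim1 and farther from the main TSS. In the sliding clamp and its loader, Rfc1 and Rfc2 had peaks, whereas Pcna, Rfc3, Rfc4 and Rfc5 had none. The like shares would give 1.19 and 2.26 genes with a peak here. Rfc1, the large subunit of the clamp loader, had 15.2 tags (10.4 to 21.5) at chr5:65336143-65336623, 9.81-fold over input and 713 bp upstream, the most distant of the 16 peaks. Rfc2, a small subunit of the loader, had 14.0 tags (9.38 to 20.1) at chr5:134581976-134582456, 9.03-fold over input. The centre of the Rfc2 peak was 474 bp upstream of its nearest TSS, which is the main one, and in an intron of transcripts that start farther upstream. The counts of the 2 loader genes differ by less than their counting intervals.

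Among genes of single-stranded DNA binding and the lagging strand, Rpa2 and Lig1 had peaks and Rpa1 and Fen1 did not. By like GC content 0.74 genes would have a peak, and by like GC and CpG 1.23. The peak of Rpa2, a subunit of the single-stranded DNA binding protein RPA, had 14.9 tags (10.1 to 21.2) at chr4:132767583-132768063 and was 9.66-fold over input, 509 bp upstream. Lig1, the ligase that joins Okazaki fragments, had 10.8 tags (6.80 to 16.3) at chr7:13278371-13278851, 9.35-fold over input. Its fold over the surroundings, 7.55, was the highest of the 16. The centre was 215 bp upstream of an alternative TSS of Lig1 but 1298 bp downstream of its main TSS, in introns of Lig1 and Zswim9 and 51 bp from a TSS of Zswim9. Lig1 thus entered the count of genes with a peak through a site that is nearer to another gene.

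The genes of deoxynucleotide supply gave 2 peaks in 3 genes, where like GC content would give 0.61 and like GC and CpG 0.84. Rrm1, the large subunit of ribonucleotide reductase, had 17.3 tags (12.1 to 24.0) at chr7:102441186-102441666, 8.97-fold over input and 269 bp upstream. On chromosome 7, where the median count was 11.6, this was above 95.5% of peaks, compared with 74.5% of all peaks. Tyms, which makes thymidylate, had 11.1 tags (7.04 to 16.6) at chr5:30073672-30074152 and 4.78-fold over input, the lowest fold of the 16, 295 bp upstream. Rrm2, the small subunit of the same enzyme as Rrm1, had no peak within 3422 kb, the longest distance of any listed gene. Of the 2 subunit genes of this enzyme, 1 thus had a peak near its TSS.

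In the cyclin group the peaks lay at the E2F and Rb families and at Cdk4. Rbl1 encodes p107, a member of the Rb family that represses E2F targets, and its peak (chr2:157204456-157204936) had 22.2 tags (16.3 to 29.6). The fold over input of 29.3 was the highest of the 16, and the centre was 162 bp upstream. Cdk4, the kinase partner of D-type cyclins, had 21.2 tags (15.4 to 28.5) at chr10:127063960-127064440, 13.7-fold over input. Its centre was 98 bp upstream of an alternative TSS but 666 bp downstream of the main TSS, in an exon of Cdk4. E2f3, an activator E2F, had 19.7 tags (14.1 to 26.7) at chr13:29984530-29985010, 17.0-fold over input and 379 bp upstream of the main TSS, within an intron of longer E2f3 transcripts. E2f2, another activator, had 12.8 tags (8.40 to 18.7) at chr4:136171542-136172022, 5.50-fold over input and 612 bp upstream. The intervals of these 4 genes overlap one another.

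None of the 5 listed cyclin genes had a peak, where like GC content would give 1.18 and like GC and CpG 1.32. The nearest peak was 35.5 kb from Ccne2, 76.2 kb from Ccne1, 267 kb from Ccnd1 and 502 kb from Ccna2, and that of Ccnb1 lay between the distances of Ccne2 and Ccne1. No peak lay at Cdk1, Cdk2 or the phosphatase gene Cdc25a, nor at E2f1 or Rb1. Of the CDK inhibitors, Cdkn1a (p21) had its nearest peak 17.9 kb upstream at Trp53cor1, a noncoding gene, and Cdkn1b (p27) 278 kb away. Within the group, the peaks lay at 3 of 5 E2F and Rb family genes and at 1 of 11 other genes. For the 5 E2F and Rb family genes, like GC content would give 1.18 and like GC and CpG 1.27. With so few genes, the split is given without a test.

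In the mitosis class, Aurka, the spindle pole kinase Aurora A, had the only peak, with 17.8 tags (12.5 to 24.5) at chr2:172370871-172371351. It was 6.59-fold over input and 576 bp upstream of Aurka. The centre lay in an intron of Cstf1, a divergently transcribed gene of mRNA 3' end formation, 377 bp from the Cstf1 TSS. Plk1, Aurkb, Bub1, Mki67 and Top2a had no peak. Aurkb had its nearest 5.75 kb upstream, where no annotated TSS lay within 2.5 kb, and Mki67, the proliferation marker, 2074 kb away.

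The peaks of listed genes were of ordinary height. Their median tag count was 14.6, against 14.9 over the 3213 peaks at protein-coding genes (middle 50% of peaks 12.5 to 17.8), and 7 of 16 were above that value. The median was 14.0 for the 11 replication peaks and 20.5 for the 4 peaks of the cyclin group. Chromosome medians ran from 10.4 to 18.5 tags, and their part in the order among genes was not tested. The median fold over input was 9.0 for the listed genes and 9.1 for other genes with a peak, and the median fold over the surroundings 5.09 and 5.02. The folds over input rest on few input tags. Dividing the tag count by the fold gives input levels from 0.76 tags per 10000000 at Rbl1 to 4.25 at Gins3, so the order of the folds is not the order of the ChIP signal.

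**Figure D2:**
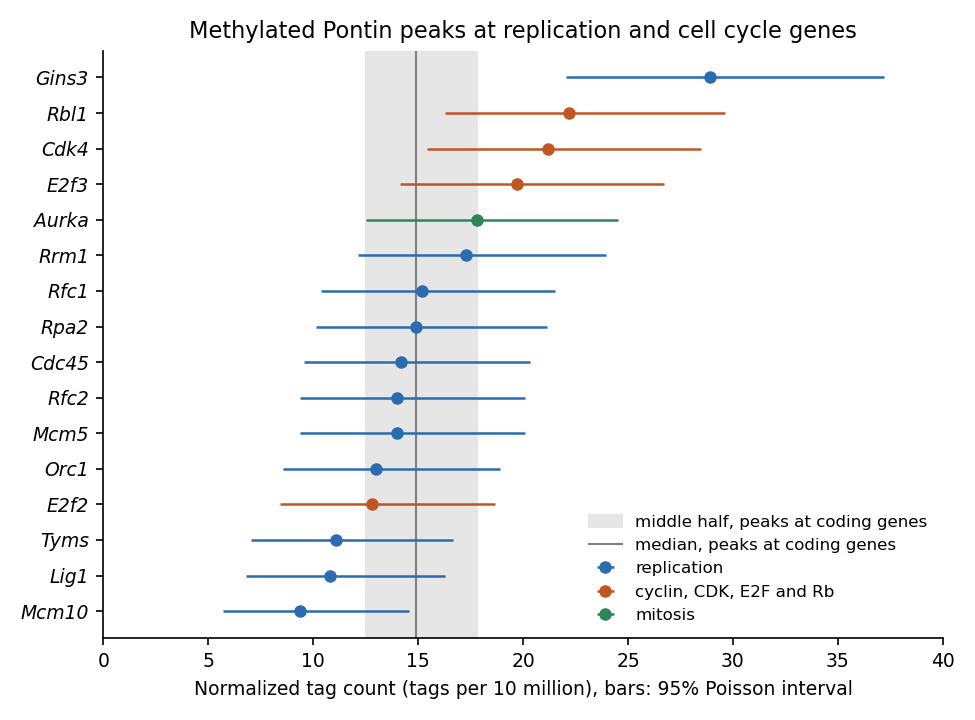
Normalised tag count (x axis, tags per 10000000) of the methylated Pontin peak at each of the 16 listed genes with a peak, with 95% Poisson intervals for counting error as bars. The grey band and line are the middle 50% of peaks and the median of peaks at protein-coding genes, 12.5 to 17.8 and 14.9. Gins3 lay at 28.9 and Mcm10 at 9.39, and the intervals of genes that are neighbours in the order overlap.

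The definition of the list does not use the position of the peaks, but the list was chosen with earlier results of these data known. All 16 centres were upstream of the nearest TSS of their gene, between 98 and 713 bp, whereas 55.3% of all protein-coding genes with a peak had it upstream (2072 of 3747). The median position was 360 bp upstream for the listed genes and 97 bp upstream for other genes. Of the 16 centres, 11 were within 500 bp of a TSS, compared with 78.2% over all protein-coding genes with a peak. With so few genes, these shares are not told apart. Measured from 1 main TSS per gene, 14 of 16 centres were upstream, against 51.8%, and those of Cdk4 and Lig1 were downstream. The centres of E2f3 and Rfc2 were upstream of the main TSS but inside the gene, in introns of transcripts that start farther upstream. The direction is relative to the listed gene. For Aurka, Cdc45, Orc1 and Lig1 another protein-coding TSS was nearer. The remaining 12 centres are part of the 16, so their upstream position adds no separate observation. Because the peaks come from a single library, no test of this difference was made.

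**Figure D3:**
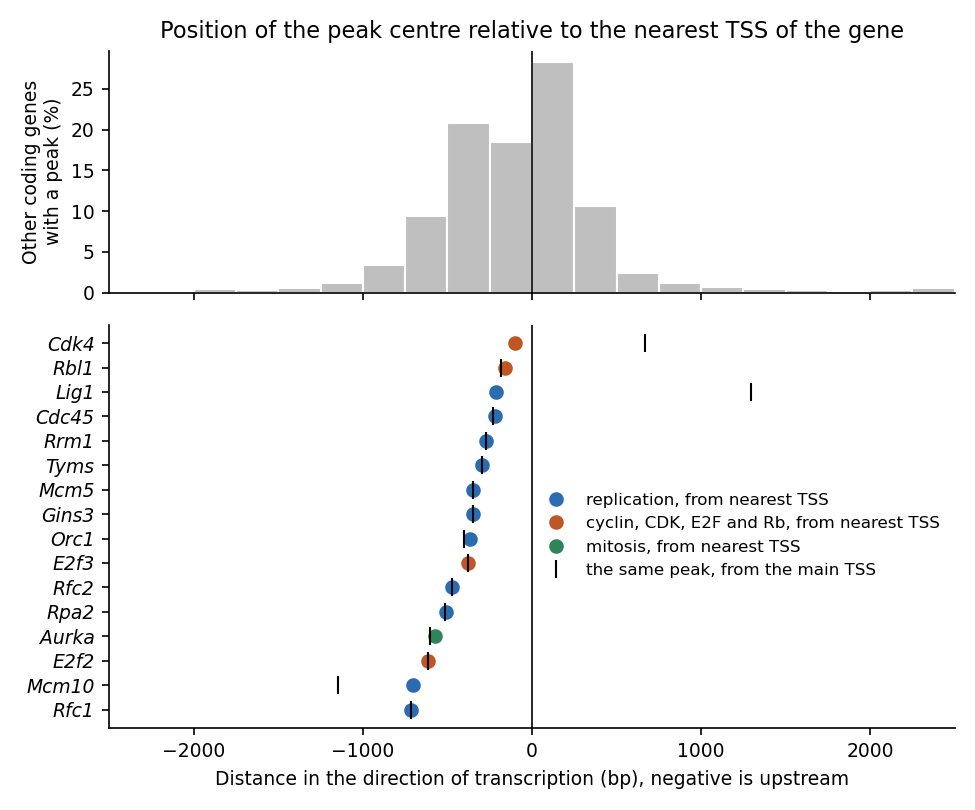
Distance of the peak centre from the TSS in the direction of transcription (x axis, bp, negative is upstream). The upper panel is a histogram of other protein-coding genes with a peak, in percent of those genes, and the lower panel gives each listed gene, with dots from its nearest TSS and bars from its main TSS. All 16 dots lie between 98 and 713 bp upstream, and the bars of Cdk4 and Lig1 lie 666 and 1298 bp downstream.

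The peaks also differed in base composition from the promoters beside them. In 14 of 16 genes the GC content of the peak was below that of the kilobase around the main TSS, the exceptions being Aurka and Lig1, compared with 54.9% of all protein-coding genes with a peak. The median GC content of the peaks was 47.1% for listed genes and 57.0% for other genes with a peak. For the replication genes it was 45.5%, with 40.7% at Gins3, and for the 4 cyclin group genes 60.5%. Composition and position were measured on the same 16 peaks and are not separate observations.

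Of the 42 genes without a peak, 5 had a peak within 10 kb. Pcna, the sliding clamp, was the closest to the limit, with a peak of 13.2 tags at the neighbouring gene Tmem230. It lay 2.92 kb downstream of an alternative TSS of Pcna. For Mcm7 it was 4.87 kb away at Cops6 and for Rfc4 7.61 kb away at Eif4a2, and the cases of Aurkb and Prim1 are given above. For Pcna, Mcm7, Rfc4 and Prim1 the distance is from an alternative TSS, and the peak lay beyond the 3' end of the gene. From their main TSSs these peaks were farther away. The farthest centre that counted as a peak was that of Rfc1 at 713 bp, so no listed gene lay just inside the limit. The median distance to the nearest peak was 75.4 kb for the 42 genes, and 134 kb for other protein-coding genes without a peak. More than 100 kb separated 19 of the 58 genes (32.8%) from any peak, compared with 47.0% of other genes. Neither comparison held promoter composition alike. The median CpG ratio was 0.81 for the 42 genes and 0.47 for other genes without a peak. Regions under the authors' limits are not in the list, so a gene without a peak is not shown to lack methylated Pontin.

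**Figure D4:**
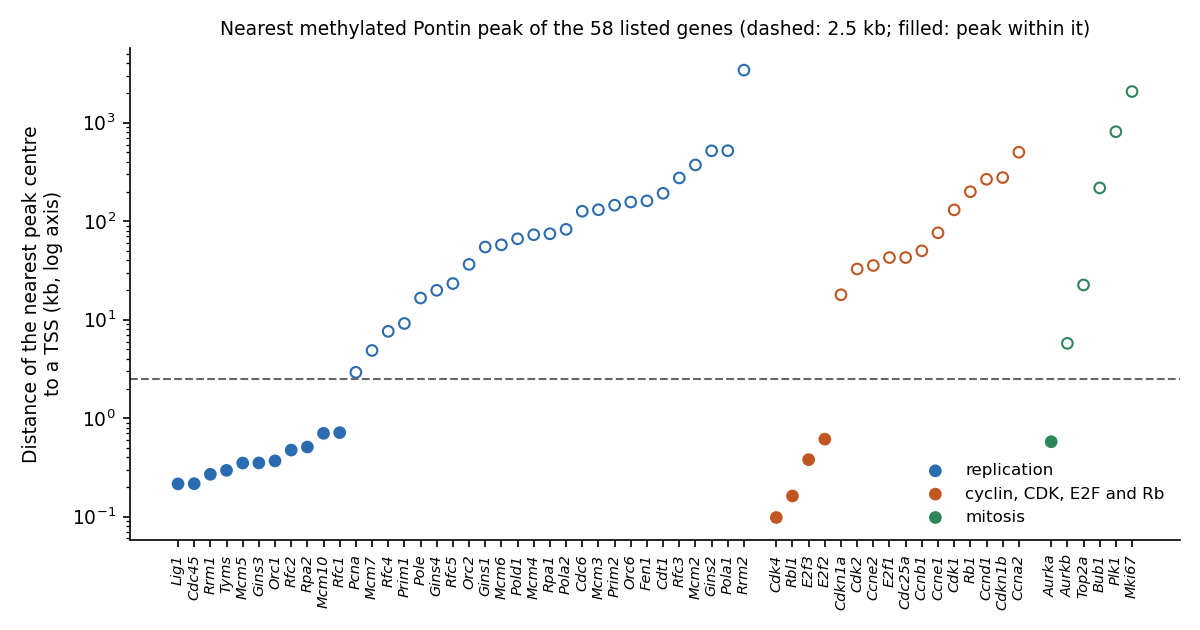
Distance from a TSS to the centre of the nearest methylated Pontin peak (y axis, kb, log axis) for each of the 58 listed genes, ordered within the replication, cyclin and mitosis classes. Filled circles are the 16 genes with a peak within 2.5 kb (dashed line), and open circles the 42 others. The filled circles end at 713 bp and the open circles start at 2.92 kb with Pcna and reach 3422 kb with Rrm2.

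The promoters were searched for sequence words known from cell cycle genes, and E2F words and CCAAT were more frequent in the listed promoters than in all promoters, whereas the CHR word was not. In the 250 bp upstream of the main TSS, 15 of 58 promoters (25.9%) held an E2F word, against 6.11% of all protein-coding promoters of that length. Each E2F word contains a CpG, and the listed promoters had a higher median CpG ratio than other genes, 0.80 against 0.57. Promoters of like CpG ratio were not compared for the words, so the part of CpG in this difference was not tested. The 15 promoters with an E2F word were those of 9 of 36 replication genes, 6 of 16 of the cyclin group and 0 of 6 mitosis genes. CCAAT was present in 36 of 58 promoters (62.1%, against 35.8% of all), including all 6 of mitosis. The CHR word TTTGAA was present in 7 of 58 (12.1%, against 14.1%), 4 of them among the 6 mitosis genes. The FOXO word GTAAACA was present in 2 of 58 (3.45%, against 2.56%). These shares describe the promoters as such, whether or not methylated Pontin was found there.

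A peak was found at 6 of the 15 listed genes with an E2F word in the promoter and at 10 of the 43 without (40% and 23.3%). Over all protein-coding genes the shares were 26.5% with an E2F word and 16.5% without, in the same direction. For CCAAT the counts were 10 of 36 with the word and 6 of 22 without (27.8% and 27.3%), and over other protein-coding genes 16% and 17.6% had a peak. Inside the peaks themselves, 4 of 16 held an E2F word, those of Rbl1, Rrm1, Rpa2 and Mcm5 printed above. The share was 11.2% of all peaks and 13.7% of the peaks within 2.5 kb of protein-coding genes. CCAAT was in 9 of 16 (40.4% and 39.2% in these sets) and TTTGAA in 8 of 16 (25.6% and 22.6%). GTAAACA was in 2 of 16 (5.08% and 4.39%), the peaks of Cdc45 and Rfc1. It lay 11 bp from the peak centre at Cdc45 and 205 bp from it at Rfc1. With 16 peaks, 1 peak is 6.25 percentage points. A match to a word is no measurement of a factor, and the part of the lower GC content of the listed peaks in these shares was not tested.

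A divergent protein-coding partner, with its TSS within 1 kb in the opposite direction, was annotated at 10 of the 58 genes (17.2%) and at 9.17% of other genes. Among other genes a partner went with more peaks, 38.1% of genes with one and 14.9% of those without. Among the listed genes the shares were 3 of 10 (Aurka, Cdc45 and Orc1) and 13 of 48 (27.1%). Genes without such a partner held 13 of the 16 listed peaks, and 2967 of the 3731 other genes with a peak also had none.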

How the data were processed

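ChIP-seq reads of glucose-starved MEFs were aligned by the authors to GRCm38/mm10 with Bowtie2, and peaks were called with HOMER 4.7.2 against an input library, as the study's methods and the submitters' processing notes state. The list holds 1 library, not pooled. The deposited signal is the normalised tag count, scaled by the authors to 10000000 tags. The deposited score of each peak was used only to take the upper part of the list. The authors also computed the ratios of each peak over input and over the local 10 kb. Per the file headers, peaks passed a false discovery rate of 0.001 (18 tags), 4-fold over input and over the local region, and a Poisson p-value of 0.0001. These limits remove weaker sites and cannot be relaxed here. For 1 column of input tags the name does not say which library it holds, so it was left out, as were the authors' p-values and focus ratio.

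Distances, promoter composition and exact word matches were computed with Python 3.11.15, pandas 2.3.3, NumPy 2.4.6 and SciPy 1.17.1 on GENCODE vM21 and GRCm38.p6. The main TSS is that of the best-ranked APPRIS transcript. Poisson intervals are exact, at 95%. Distances were tested on simulated data, where 500 of 500 genes matched a direct search. All results are descriptions without a test. Genes with a peak were all named, those without one were named when the nearest peak was within 10 kb or when a group was listed, and the 5 further pathway genes with the most tags were named. Others named among genes without a peak, such as Rrm2, and further pathway genes beyond those 5 were chosen after their values were seen. The members and lists were chosen with earlier results of these data known. Alternatives changed the distance, TSS set, fold, score and what was held alike.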

Additional observations from a re-analysis of the deposited data

How the results depend on the processing

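The count of 16 genes with a peak did not change with a distance limit of 1 kb, with the peak edge in place of the centre, with the TSSs of protein-coding transcripts only, or with 1 main TSS per gene. It was 18 at 5 kb, where Mcm7 and Pcna were gained, both through an alternative TSS. Among peaks at least 8-fold over input, 9 genes had a peak (6 replication, 0 mitosis), and Aurka, Cdc45, E2f2, Gins3, Mcm10, Orc1 and Tyms were lost. With the higher-scoring peaks alone, 10 genes had a peak (5 replication). The share of other genes of like GC content was 12.2% and 12.3% in these subsets, 19.9% at 1 kb, 22.3% at 5 kb, 19.8% with 1 main TSS and 21.9% with GC content over 250 bp either side. Holding a further feature alike with GC content gave 31.2% with the CpG ratio, 24.8% with the number of TSSs and 22.2% with a divergent partner, and the CpG ratio alone gave 28.0%. The divergent partner and the CpG ratio alone were added after seeing the data. The cause of these shifts was not tested beyond the construction of each subset. The other 30 recomputed values were not counted as moved. No paired analysis was possible because a single library has values. Depth limits the counts, since a peak of median height rests on 29.5 tags.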

Other observations

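Further genes of the same pathways had peaks at a share close to that of the 58, 22 of 76 (28.9%), where other genes had 23.0% at like GC content and 31.0% at like GC content and CpG ratio. The 5 with the most tags were Incenp, a chromosomal passenger protein (24.1 tags per 10000000), Tpx2, a spindle assembly factor (20.5), Espl1, the separase that cleaves cohesin (20.2), Ndc80 of the kinetochore (20.2) and Rbl2, which encodes the Rb family member p130 (20). By class, 11 of 30 replication genes, 4 of 21 cyclin group genes and 7 of 25 mitosis genes had a peak. In the same order, like GC content would give 7.11, 4.89 and 5.45 genes, and like GC and CpG 9.32, 5.59 and 8.63. Of the centres of these peaks, all 7 in mitosis were upstream of the nearest TSS, as were 3 of 4 in the cyclin group. In replication 5 of 11 were upstream, and the median position was 3 bp downstream. Over all protein-coding genes with a peak, 55.3% had it upstream. With so few peaks, the order of the classes is given without a test. The upstream position seen at all 11 listed replication genes was thus not found throughout the further replication genes.

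Read with the further genes, complexes were covered in part. Peaks lay at 3 of 6 genes of the origin recognition complex (Orc1, Orc3 and Orc4), at 2 of 3 of RPA (Rpa2 and Rpa3) and at 2 of 3 of the Rb family (Rbl1 and Rbl2, not Rb1). The Orc1 peak could not be assigned to Orc1 rather than to Prpf38a. Peaks also lay at 1 of 6 genes of the MCM ring, 1 of 4 of GINS and 2 of 5 of RFC. For ribonucleotide reductase it was 1 of 2, and for the activator E2Fs 2 of 3. No listed polymerase or primase gene had a peak, but 4 of 6 further subunit genes of the delta and epsilon polymerases did, Pold2, Pold3, Pole2 and Pole4. Over all protein-coding genes the share with a peak was 17.1%. Genes of like promoter composition were not compared for these combined complexes, and each holds few genes. Orc3, Orc4 and Rpa3 had the annotated divergent partners Rars2, Mbd5 and Umad1.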
